A study of Homo sapiens with 6 samples.

Results

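The genes described here are 35 of the human aminoacyl-tRNA synthetases, the enzymes that attach an amino acid to its transfer RNA. They were chosen by symbol, and all 35 were matched to an Ensembl identifier among the 58302 genes of the deposited counts. Of these, 19 encode enzymes of the cytosol and 16 encode enzymes of the mitochondria. The cells are labelled MDA-MB-231, a breast cancer cell line that the study classes as mesenchymal/basal-like. Some of the markers given below go against that class. RNA was sequenced from 3 libraries of cells expressing control shRNA and 3 libraries of cells expressing Smyca shRNA #1, a short hairpin RNA against the lncRNA Smyca. All 6 libraries share the cell line label, and each group expresses its own shRNA, so the knockdown rests on 1 shRNA. The study calls the 3 libraries of a group biological repeats. Neither it nor the labels say that they came from separate cultures, so p-values measure the spread between these libraries. Total counts were 14999307 to 16501085 per library. The question was whether the cytosolic and the mitochondrial enzymes differ between control and knockdown.

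Each synthetase recognizes its amino acid and the matching tRNAs and joins them in an ATP-dependent reaction, so that the ribosome can read the code. Protein synthesis in the cytosol and in mitochondria uses separate sets of tRNAs, and most amino acids therefore have a cytosolic enzyme, by convention with a symbol ending in 1, and a mitochondrial enzyme encoded by another nuclear gene with a symbol ending in 2. GARS1 for glycine and KARS1 for lysine serve both compartments, and EPRS1 charges both glutamate and proline. Several cytosolic enzymes sit in the multisynthetase complex, held together by scaffold proteins. When charged tRNA runs short, the kinase GCN2 raises translation of the transcription factor ATF4, which binds promoters of many cytosolic synthetases and of amino acid synthesis genes.

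The targeted lncRNA gene, MIR23AHG, which RefSeq lists as Smyca, was measured at 25.0, 19.5 and 22.0 CPM in the 3 controls and at 10.5, 6.97 and 5.61 CPM in the knockdown libraries. The 2 groups did not overlap, as in 12.4% of all genes tested with the controls above. The log2 fold change of MIR23AHG, control over knockdown, was 1.53. Its adjusted p by edgeR's quasi-likelihood test was 0.111, so the targeted gene did not pass 0.05. CPM here are TMM-normalized counts on a common library size, and 1 CPM stands for 15.2 to 16.3 counts. By the counts, control replicate 3 stood apart. Its log CPM values over all genes tested correlated at 0.949 and 0.957 with the other controls, which correlated at 0.988 with each other. The FPKM column of control replicate 2, however, followed its own counts in 2.35% of genes, against 100% in the other 5 libraries. The reads from which that column was made correlated at 0.984 with control replicate 3, at 0.971 with the counts of control replicate 2, at 0.968 with control replicate 1 and at 0.973 to 0.974 with the knockdown libraries. These values for the recovered reads used log2 counts without normalization, over more genes than those tested, so they are not on the scale of the log CPM values. In log CPM, the counts of control replicate 3 correlated more closely with the knockdown libraries, at 0.965 to 0.968, than with the other controls. Within each scale, which control stands apart depends on the column taken for control replicate 2. The files do not settle which of the columns is its own. The epithelial genes KRT8 and EPCAM were high in each of the libraries labelled MDA-MB-231, at 4250 to 7410 CPM and 236 to 336 CPM. By these genes the libraries go against a mesenchymal line, but the mesenchymal MSN was above EPCAM in each library, at 341 to 767 CPM. Of the 8 luminal breast markers, which include KRT8 and EPCAM, 5 were tested and the other 3, ESR1, PGR and FOXA1, were under 1 CPM in each library. That list summed to 6040 to 6360 CPM in the control and 6590 to 9140 CPM in the knockdown. CDH1, also on it, was at 71.5 to 300 CPM, with a log2 fold change of 0.72 towards the control. Of the 10 intestinal epithelium markers, 7 were tested and CDX1 was at 0 counts in each library. VIL1 was the highest of them at 220 to 501 CPM and HNF4A was at 65.4 to 194 CPM, and the summed list lay at 337 to 611 CPM in the control and 693 to 819 CPM in the knockdown. All 6 hepatocyte markers stayed under 1 CPM. The 5 mesenchymal markers summed to 574 to 1260 CPM in the control and 633 to 966 CPM in the knockdown. VIM was at 148 to 305 CPM in the control and 71.2 to 130 CPM in the knockdown. Among the RNA quality genes, the nuclear lncRNAs MALAT1 and NEAT1 were higher in each control than in each knockdown library, at 292 to 397 against 161 to 231 CPM and at 250 to 354 against 67.7 to 142 CPM. The mitochondrially encoded MT-CYB was at 162 CPM in control replicate 3, 28.6 and 37.2 CPM in the other controls and 93.9 to 112 CPM in the knockdown. None of the marker or quality genes passed an adjusted p under 0.05 in the edgeR fit. At an unadjusted p under 0.05, 1 of 5 luminal and 2 of 7 intestinal genes tested were lower in the control, against 8.74% of all genes tested. Higher in the control were 1 of 7 intestinal, 3 of 5 mesenchymal and 2 of 7 quality genes, against 10.4% of all genes tested. The part of these genes in the synthetase values was not tested. In bulk RNA, fewer cells of a type and less RNA per cell cannot be told apart.

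Promoter sequences are shown because the cytosolic enzymes fall into 2 sets by their known control by ATF4, which came apart in the libraries as described further on. RefSeq promoters of GRCh38.p14, from 250 bases before to 50 bases after the gene start, were found for 30 of the 35 genes. LARS1, VARS1, YARS1, AARS2 and VARS2 had none in the table used. The core letters of the ATF4 composite element, TGATGNAA on either strand, occurred in 4.46% of 27305 genes with a promoter. They occurred in 7 of 10 cytosolic synthetases that are listed ATF4 targets, in 0 of 6 other cytosolic synthetases and in 1 of 14 mitochondrial synthetases. Such sites were among the reasons these genes became known ATF4 targets, so the count is a description only. Each stretch below is written on the strand of the gene with the matching letters in capitals.
AARS1, match at -187 from the gene start, chr16:70289666-70289713, minus strand: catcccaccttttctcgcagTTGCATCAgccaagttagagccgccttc
CARS1, match at -2, chr11:3057398-3057445, minus strand: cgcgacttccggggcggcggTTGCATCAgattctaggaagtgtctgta
GARS1, match at -33, chr7:30594825-30594872, plus strand: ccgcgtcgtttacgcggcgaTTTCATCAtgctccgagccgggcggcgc
IARS1, match at -13, chr9:92293683-92293730, minus strand: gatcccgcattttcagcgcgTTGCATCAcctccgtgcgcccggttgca
MARS1, match at -4, chr12:57488044-57488091, plus strand: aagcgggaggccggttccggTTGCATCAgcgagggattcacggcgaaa
NARS1, match at 15, chr18:57621807-57621842, minus strand: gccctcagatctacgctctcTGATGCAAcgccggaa
TARS1, match at 3, chr5:33440947-33440994, plus strand: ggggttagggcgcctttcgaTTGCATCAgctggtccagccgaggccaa
YARS2, match at -197, chr12:32756067-32756114, minus strand: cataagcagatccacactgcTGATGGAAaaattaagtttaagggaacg

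In 6 of the 8 stretches the match began within 33 bases of the gene start, and in AARS1 and the mitochondrial YARS2 it lay farther upstream. GARS1 and YARS2 carried other letters than the rest at the free position N.

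The stretches around the gene starts of IARS2, EARS2, LARS2 and MARS2 are shown because these were the mitochondrial members with an unadjusted p under 0.05. They were searched on both strands for an E-box (CACGTG, in 8.77% of genes with a promoter), the core of an NRF1 site (CGCATGCG, in 2.46%) and an ETS site (CCGGAAGT, in 4.95%). Capitals mark these letters, and each stretch runs from 70 bases before to 30 bases after the gene start on the strand of the gene.
IARS2, chr1:220094062-220094161, plus strand: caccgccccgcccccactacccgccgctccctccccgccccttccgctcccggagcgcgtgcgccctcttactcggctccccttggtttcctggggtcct
EARS2, chr16:23557321-23557420, minus strand: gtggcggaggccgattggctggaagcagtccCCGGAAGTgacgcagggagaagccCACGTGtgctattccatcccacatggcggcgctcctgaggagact
LARS2, chr3:45388506-45388605, plus strand: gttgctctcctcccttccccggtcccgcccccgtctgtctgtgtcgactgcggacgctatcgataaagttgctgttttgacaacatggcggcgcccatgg
MARS2, chr2:197705299-197705398, plus strand: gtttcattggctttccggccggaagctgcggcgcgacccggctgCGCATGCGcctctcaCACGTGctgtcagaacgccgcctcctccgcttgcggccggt

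An E-box occurred in 3 of 14 mitochondrial members with a promoter, CARS2, EARS2 and MARS2, and in 1 of 16 cytosolic members, IARS1. The ETS letters occurred in EARS2, HARS2 and PARS2 and in the cytosolic CARS1, HARS1, NARS1, TARS1 and WARS1. The promoters of IARS2 and LARS2, which had some of the largest differences in level, held none of the motifs searched.

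Across the 35 synthetases, 0 passed an adjusted p under 0.05 by the quasi-likelihood test of edgeR (Benjamini-Hochberg, 15075 genes), a rule that 0.0265% of genes passed. DESeq2 and edgeR's exact test each called 2 of them, which is close to the share of all genes that these tests called, 6.7% and 5.29%. At an unadjusted p under 0.05, 5 members were lower in the control and 1 was higher, against 8.74% and 10.4% of all genes tested. The 5 were LARS2, IARS2, EARS2, MARS2 and FARSA, and the 1 was CARS1. The fold change is the control level divided by the knockdown level, the direction in which the study defines its differentially expressed genes, so a negative log2 value is a higher level in the knockdown.

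The 2 compartments differed in where their members lay. Among the 16 mitochondrial genes, 14 had a log2 fold change below 0, against 46.6% of all genes, and their median was -0.30 where the median of all genes was 0.04. Among the 19 cytosolic genes, 10 lay below 0 and 9 above it, with a median of -0.0031. Genes of which all 3 control libraries lay below all 3 knockdown libraries made up 12.5% of genes tested, and 6 of 16 mitochondrial and 2 of 19 cytosolic members were among them. Genes with all controls above made up 12.4%, and among the members CARS1 was the only such gene. The plot of the 35 fold changes shows the mitochondrial genes mostly left of 0.

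**Figure D1:**
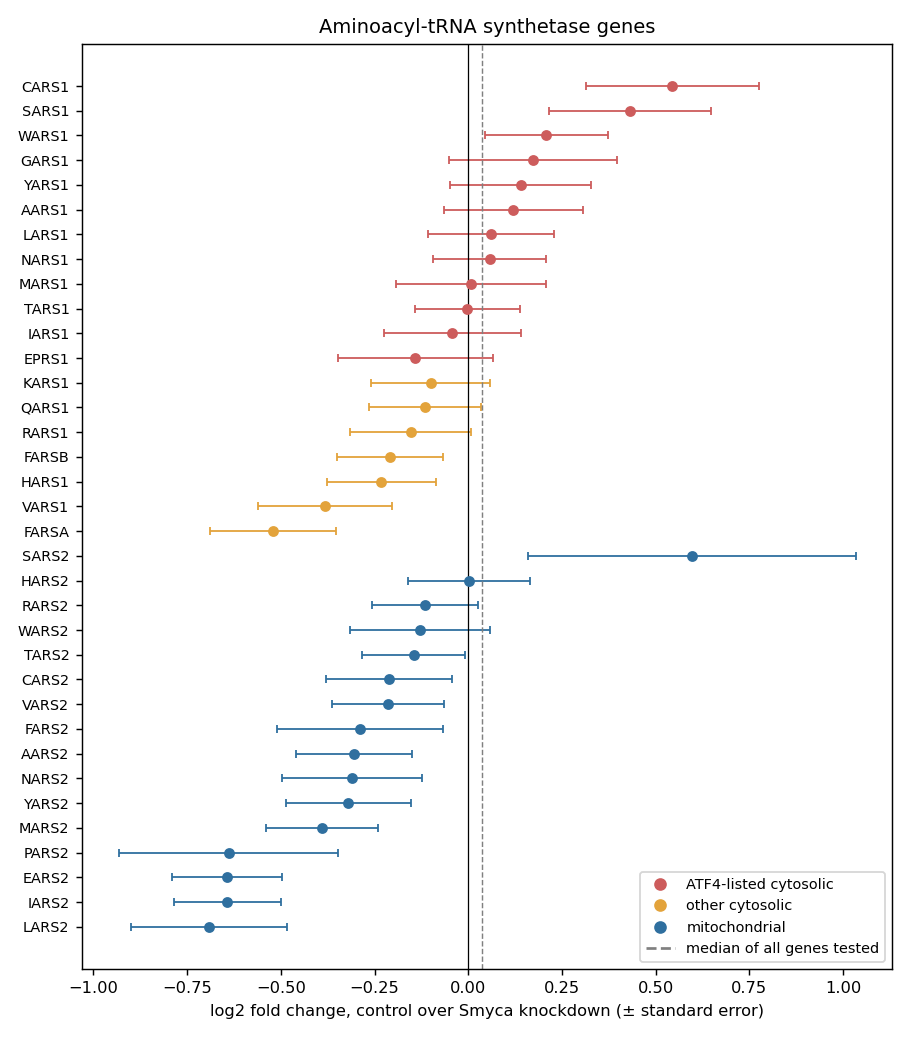
Log2 fold change of each of the 35 synthetase genes, control over Smyca knockdown (points), with the standard error of the fit (bars); colours mark cytosolic genes listed as ATF4 targets, other cytosolic genes and mitochondrial genes, and the dashed line is the median of all 15075 genes tested, 0.04. The 16 mitochondrial genes run from -0.69 for LARS2 to 0.60 for SARS2, with 14 left of 0, and the 19 cytosolic genes from -0.52 for FARSA to 0.54 for CARS1.

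IARS2, which charges mitochondrial isoleucine tRNA, was higher in each knockdown library than in each control. The gene lies on chr1:220094132-220148041 (GRCh38, plus strand). It was measured at 115, 137 and 111 CPM in the control and at 194, 185 and 189 CPM in the knockdown, or 121 ± 13.9 against 189 ± 4.73 (SD, n = 3). The knockdown libraries lay within 1.05-fold of each other. The log2 fold change was -0.64 with a standard error of 0.14, a 1.56-fold higher level in the knockdown, and the adjusted p of edgeR's quasi-likelihood test was 0.113. Under the alternatives, the adjusted p lay between 0.00424 with DESeq2 and 0.44.

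EARS2 showed a difference of the same size. It charges mitochondrial glutamate tRNA and also places glutamate on the mitochondrial glutamine tRNA. It lies on chr16:23520754-23557731 (minus strand). Levels were 33.6, 38.8 and 39.9 CPM in the control and 52.6, 59.6 and 63.2 CPM in the knockdown, with no overlap. The log2 fold change was -0.64 with a standard error of 0.15 and an edgeR adjusted p of 0.114, and the alternatives gave 0.0118 to 0.44.

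These 2 genes passed the adjusted threshold when control replicate 3 was left out. The edgeR adjusted p was then 0.0406 for IARS2 and 0.031 for EARS2, in a fit in which 4.35% of genes were called lower in the control. Without control replicate 1 instead, the edgeR adjusted p was 0.352 for IARS2 and 0.37 for EARS2. With control replicate 2 taken from its FPKM column, the edgeR adjusted p was 0.0749 for IARS2 and 0.0964 for EARS2. With DESeq2 on all 6 libraries, 3.1% of genes were called lower in the control, IARS2 and EARS2 among them.

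LARS2, the mitochondrial leucine enzyme on chr3:45388561-45554726 (plus strand), had the lowest log2 fold change of the 35 genes. Its levels were 28.3, 44 and 39 CPM in the control and 49.4, 58.9 and 71.6 CPM in the knockdown. The groups did not overlap, but replicates spread 1.55-fold in the control and 1.45-fold in the knockdown. The log2 fold change was -0.69 with a standard error of 0.21 and an edgeR adjusted p of 0.145. With genes kept from 1 count upwards, a filter under which 30409 genes were tested and 3.01% were called, the edgeR adjusted p was 0.0368, and the other alternatives reached up to 0.443.

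MARS2 charges the mitochondrial methionine tRNA that both starts and extends mitochondrial proteins. It lies on chr2:197705369-197708395 (plus strand). Its levels were 34.1, 33.6 and 31.6 CPM in the control and 45.5, 47.1 and 37.5 CPM in the knockdown. The 3 controls lay within 1.08-fold of each other and the lowest knockdown library above them all. The log2 fold change was -0.39 with a standard error of 0.15 and an edgeR adjusted p of 0.209.

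PARS2 and AARS2, for proline and alanine, were the other mitochondrial members whose groups did not overlap. PARS2 was measured at 8.02, 9.35 and 4.67 CPM in the control and at 9.71, 11.7 and 12.9 CPM in the knockdown, from 73 to 196 counts per library. Its log2 fold change was -0.64 with a standard error of 0.29, and -1.16 when control replicate 2 was taken as the reads from which its FPKM column was made, but -0.40 without control replicate 3. AARS2 was measured at 29.6, 29.8 and 32.8 CPM in the control and at 34.3, 36.1 and 43.5 CPM in the knockdown, a log2 fold change of -0.31 with a standard error of 0.15. Neither passed an unadjusted p under 0.05.

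**Figure D2:**
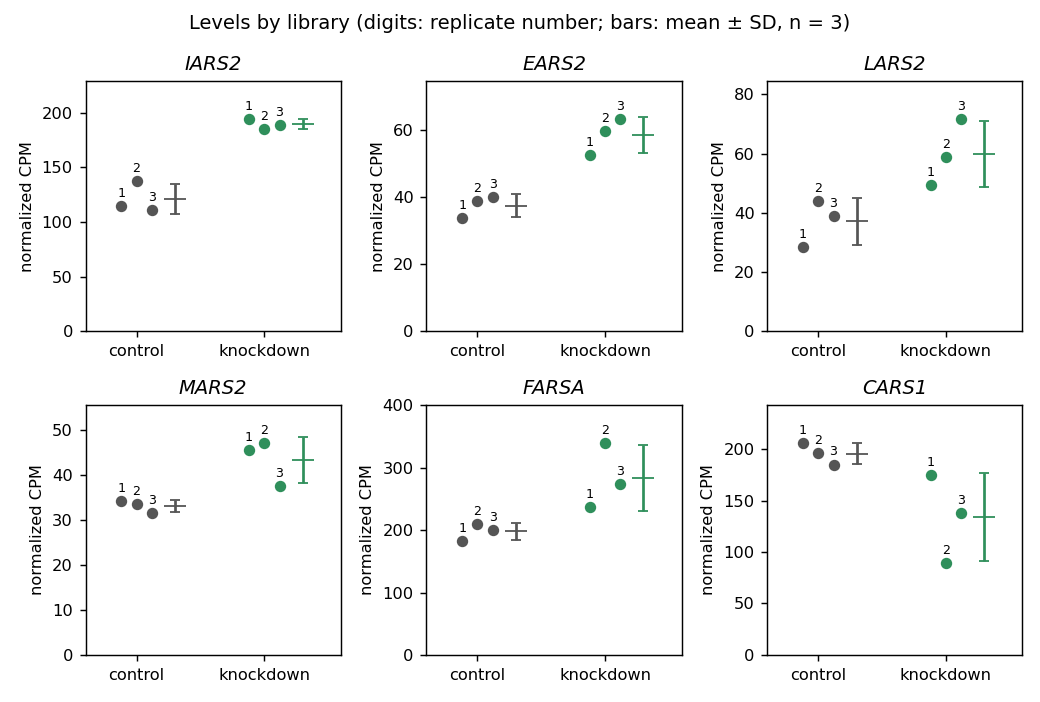
Normalized CPM of the 6 synthetase genes with an unadjusted p under 0.05 in the 3 control and 3 Smyca knockdown libraries; points are libraries marked with their replicate number, and bars give the mean ± SD (n = 3). Each of IARS2, EARS2, LARS2, MARS2 and FARSA lies higher in all 3 knockdown libraries than in any control, and CARS1 lies lower, at 89.3 CPM in knockdown replicate 2.

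The remaining mitochondrial enzymes had smaller differences or overlapping groups. YARS2, NARS2, FARS2, VARS2, CARS2, TARS2 and WARS2, for tyrosine, asparagine, phenylalanine, valine, cysteine, threonine and tryptophan, had log2 fold changes between -0.32 and -0.13. With each library left out in turn, these values stayed below 0 and lay between -0.46 for FARS2 without control replicate 3 and -0.04 for WARS2 without knockdown replicate 3. NARS2 was at -0.13 without knockdown replicate 3, and CARS2 was at -0.37 without knockdown replicate 3 and -0.11 without knockdown replicate 2. RARS2, for arginine, was measured at 31.4, 27.9 and 30.0 CPM in the control and at 30.9, 32.1 and 33.7 CPM in the knockdown, a log2 fold change of -0.11. HARS2, for histidine, had a log2 fold change of 0.0014 and changed sign under 9 of 14 alternatives. SARS2, for serine, was barely measured. It had 10 to 25 counts per library, or 0.679, 1.23 and 1.6 CPM in the control and 0.889, 0.76 and 0.66 CPM in the knockdown. Of its exon bases, 48.16% are shared on the same strand with a readthrough gene, so its count is uncertain. For VARS2 the share was 62.98%, with a lncRNA on the same strand.

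Summed over the 16 mitochondrial genes, the level was 673, 722 and 704 CPM in the control and 885, 941 and 871 CPM in the knockdown. CARS2 and IARS2 had the highest levels within this sum. The 9 mitochondrial enzymes of class I, which share a Rossmann-fold catalytic domain, all had a log2 fold change below 0, with a median of -0.32. Of the 7 class II enzymes, built on an antiparallel sheet, 5 lay below 0 with a median of -0.29. The 2 classes thus had similar medians. In every alternative, 14 or 15 of the 16 mitochondrial genes lay below 0.

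Enzymes that act on mitochondrial aminoacyl-tRNA after charging were read beside them. The amidotransferase of GATB, GATC and QRSL1 turns the glutamate that EARS2 places on glutamine tRNA into glutamine, and MTFMT formylates the methionine that MARS2 attaches. Of these 4 genes, 1 was lower in the control at an unadjusted p under 0.05 and 0 were higher, against 8.74% and 10.4% of all genes tested. That gene, GATC, was at 11.5, 11.5 and 11.0 CPM in the control and 14.7, 14.2 and 18.1 CPM in the knockdown. MTFMT had a log2 fold change of -0.31, GATB of -0.20 and QRSL1 of 0.0017. Of 6 mitochondrial elongation and initiation factors, 0 passed in either direction and their median was -0.05. Among them, TUFM, which carries charged tRNA to the mitochondrial ribosome, had a log2 fold change of -0.13. GFM1, which moves the ribosome along, had one of -0.31. Its controls all lay below its knockdown libraries, as in 12.5% of all genes tested.

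Among the cytosolic enzymes, phenylalanyl-tRNA synthetase is built of 2 kinds of subunit, FARSA with the catalytic site and FARSB. FARSA was measured at 183, 210 and 201 CPM in the control and at 237, 340 and 274 CPM in the knockdown. All knockdown libraries lay above all controls, and the log2 fold change was -0.52 with a standard error of 0.17 and an edgeR adjusted p of 0.161. FARSB was at 64.6, 72.2 and 73.3 CPM in the control and at 73.8, 89.4 and 79.8 CPM in the knockdown. Its groups also did not overlap, by a narrow margin, and its log2 fold change was -0.21 with a standard error of 0.14 and an edgeR adjusted p of 0.447. Per kilobase of transcript, the FARSA level was 10.6, 10.9 and 10.2 times that of FARSB in the control and 12, 14.2 and 12.8 times in the knockdown. These ratios rest on MANE Select lengths of 1811 bases for FARSA and 6761 bases for FARSB, and the transcripts used in these cells were not checked. In CPM the control means lay nearer, at 198 and 70.0. The enzyme holds the subunits in equal number, but their transcript levels were unequal by both measures. FARSA lies on chr19:12922479-12934037 (minus strand), on the chromosome of MIR23AHG and 889843 bases from it.

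VARS1 and HARS1, for valine and histidine, followed FARSA at the low end of the cytosolic fold changes. VARS1 was at 409, 419 and 386 CPM in the control and at 402, 579 and 602 CPM in the knockdown. Knockdown replicate 1 lay within the controls and the other knockdown libraries well above them, with a log2 fold change of -0.38 and an edgeR adjusted p of 0.286. HARS1 was at 92.9, 103 and 115 CPM in the control and at 114, 119 and 132 CPM in the knockdown, a log2 fold change of -0.23 with an adjusted p of 0.416 from edgeR.

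CARS1, the cysteine enzyme on chr11:3000922-3057613 (minus strand), was at the other end. Its levels were 206, 196 and 185 CPM in the control and 175, 89.3 and 138 CPM in the knockdown. The controls lay within 1.11-fold of each other, while the knockdown libraries spread 1.96-fold and stayed below the controls. The log2 fold change was 0.54 with a standard error of 0.23 and an edgeR adjusted p of 0.245. It went from 0.32, without knockdown replicate 2, to 0.78, without knockdown replicate 1, over the alternatives, and the adjusted p from 0.158 to 0.553.

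SARS1 and WARS1 were the next highest. SARS1 charges serine tRNA and also the selenocysteine tRNA, and was at 383, 317 and 293 CPM in the control and at 319, 185 and 233 CPM in the knockdown, a log2 fold change of 0.43 with an edgeR adjusted p of 0.315. Its groups overlapped through knockdown replicate 1, and its log2 fold change was 0.66 without that library and 0.26 without knockdown replicate 2. WARS1, the tryptophan enzyme and a known interferon-induced gene, was at 186, 162 and 157 CPM in the control and at 173, 129 and 135 CPM in the knockdown, a log2 fold change of 0.21. This value was 0.34 without knockdown replicate 1, 0.12 without knockdown replicate 2 and 0.13 without control replicate 1. Of 8 other interferon-gamma response genes, 5 were tested and 0 passed an unadjusted p under 0.05 in the edgeR fit, with a median log2 fold change of 0.02. IRF1 had a log2 fold change of 0.09, and IDO1 was at 0 counts in each library. Of the exon bases of WARS1, 10.57% are shared with genes on the other strand, and the sources used here do not give the strand setting of the counting.

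The enzymes that serve both compartments did not share a pattern. GARS1, for glycine, was at 245, 243 and 259 CPM in the control and at 292, 152 and 218 CPM in the knockdown, or 249 ± 8.55 against 221 ± 70.1 (SD, n = 3). Its 3 control libraries lay within 1.06-fold, and the knockdown libraries spread to both sides of them. KARS1, for lysine, was at 596, 547 and 507 CPM in the control and at 504, 593 and 673 CPM in the knockdown. In KARS1 the knockdown libraries also lay on both sides of the controls, but replicate 1 was the lowest and replicate 3 the highest. The log2 fold changes were 0.17 for GARS1 and -0.10 for KARS1, with standard errors of 0.22 and 0.16. GARS1 changed sign to -0.04 without knockdown replicate 2 and was at 0.42 without knockdown replicate 1, and KARS1 lay between -0.21 without knockdown replicate 1 and -0.0048 without knockdown replicate 3.

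The 7 members that sit in the multisynthetase complex are EPRS1, IARS1, KARS1, LARS1, MARS1, QARS1 and RARS1. None of these passed an unadjusted p under 0.05 in edgeR's fit, and their log2 fold changes ran from -0.15 for RARS1 to 0.06 for LARS1 with a median of -0.10. These ends rest on single libraries, since RARS1 was at -0.05 without control replicate 3, and LARS1 was at 0.19 without knockdown replicate 1 and at -0.06 without knockdown replicate 2. EPRS1, the fused glutamate and proline enzyme, was at 244, 219 and 192 CPM in the control and at 310, 185 and 227 CPM in the knockdown. The lowest and the highest of its 6 values were both knockdown libraries. For the 12 cytosolic genes outside the complex the median was 0.09. Of the 3 scaffold genes, AIMP2 was at 27.2, 30.0 and 38.7 CPM in the control and at 43.5, 55.5 and 46.7 CPM in the knockdown. AIMP2 had no overlap, as had 12.5% of all genes tested in this direction. Its log2 fold change was -0.60 with an edgeR adjusted p of 0.145, while AIMP1 and EEF1E1 had log2 fold changes of -0.08 and 0.19. MARS1 had a log2 fold change of 0.0076, which changed sign under 6 of 14 alternatives. It was 0.24 without knockdown replicate 1 and -0.15 without knockdown replicate 2. Of the MARS1 exon bases, 12.44% are shared with ARHGAP9 and DDIT3 on the other strand.

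The remaining cytosolic enzymes, AARS1, NARS1, TARS1 and YARS1, for alanine, asparagine, threonine and tyrosine, had log2 fold changes between -0.0031 and 0.14, and each of these lay at or below -0.01 without knockdown replicate 2. AARS1 was the most abundant cytosolic member in CPM, at 864 to 1170 CPM in the control and 773 to 1100 CPM in the knockdown.

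Group medians of the cytosolic enzymes hid a spread among the knockdown libraries. ATF4 is known to act on 12 of the 19 cytosolic members: AARS1, CARS1, EPRS1, GARS1, IARS1, LARS1, MARS1, NARS1, SARS1, TARS1, WARS1 and YARS1. In all 12, knockdown replicate 2 was the lowest of the 6 libraries, as it was in 17.7% of all genes tested. This was so in 0 of the 7 other cytosolic genes and in 0 of the 16 mitochondrial genes. In all 12, knockdown replicate 1 was also the highest of the 3 knockdown libraries, as it was in 32.9% of all genes tested, in 0 of the 7 other cytosolic genes and in 2 of the 16 mitochondrial genes. This order was noticed in the values, and the counts describe it without a test.

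The size of the spread was seen in the medians. Over the 12 genes, the highest knockdown library lay 1.58-fold above the lowest in the median gene, and the highest control 1.14-fold above the lowest. For the 7 other cytosolic genes these values were 1.28-fold and 1.15-fold, and for the mitochondrial genes without SARS2 they were 1.27-fold and 1.13-fold. As a log2 deviation from each gene's mean, the median of the 12 genes was 0.10, 0.04 and 0.04 in the controls and 0.21, -0.35 and -0.06 in the knockdown libraries. The 7 other genes had medians of -0.17, -0.08 and -0.16 in the controls and -0.03, 0.17 and 0.24 in the knockdown. By these medians, knockdown replicate 2 was below the controls for the 12 genes and above them for the 7 others.

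**Figure D3:**
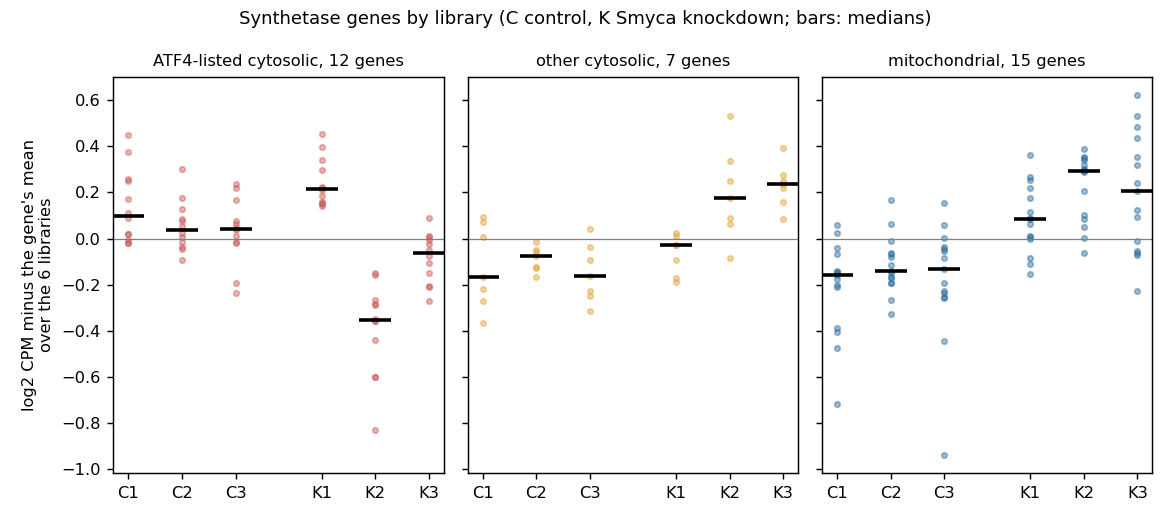
Log2 CPM of each synthetase gene minus its mean over the 6 libraries (points), by library, for 12 cytosolic genes listed as ATF4 targets, 7 other cytosolic genes and 15 mitochondrial genes (SARS2 left out for its low counts); bars are medians. In the ATF4-listed genes, knockdown replicate 2 has a median of -0.35 and replicate 1 of 0.21, and in the other cytosolic genes the medians of the same libraries are 0.17 and -0.03.

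ATF4 targets outside the synthetases showed the same order of knockdown libraries. Of the 18 on the list, knockdown replicate 2 was the lowest of all 6 libraries in 15, or 83.3%, and replicate 1 the highest knockdown library in 18, against the 17.7% and 32.9% of all genes tested. For CHAC1, a glutathione-degrading enzyme, the knockdown values were 130, 20.1 and 53.8 CPM and the controls 55.2, 86.5 and 56.0 CPM. SESN2, a leucine sensor, was at 95.3, 23.9 and 53.5 CPM in the knockdown and at 97.7, 88.2 and 69.8 CPM in the control. Between the groups, 2 of the 18 were higher and 1 lower in the control at an unadjusted p under 0.05, near the 10.4% and 8.74% of all genes. A log2 fold change above 0 was found in 14, against 53.4% of all genes, with a median of 0.28. The 2 were DDIT3 and CTH, at log2 fold changes of 1.69 and 1.07, and the 1 was the amino acid transporter SLC7A5, at -0.67. ATF4 itself was at 743, 703 and 803 CPM in the control and at 853, 563 and 565 CPM in the knockdown, so its mRNA level was highest in knockdown replicate 1 and nearly equal in the other knockdown libraries.

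This spread set how the cytosolic group read. Without knockdown replicate 2, 16 of the 19 cytosolic genes lay below 0 with a median of -0.10, and without knockdown replicate 1, 7 lay below 0 with a median of 0.10. The mitochondrial median moved less between these fits, from -0.23 to -0.32. For CARS1, leaving out control replicate 1, control replicate 2, knockdown replicate 2 or knockdown replicate 3 took it over an unadjusted p of 0.05.

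Cytosolic and mitochondrial enzymes for the same amino acid form 16 pairs, with EPRS1 set against both EARS2 and PARS2 and FARSA against FARS2. In 11 pairs the mitochondrial gene had the lower log2 fold change, and the median difference was -0.38, and -0.27 to -0.59 when each library was left out in turn, lowest in size without knockdown replicate 3 and highest without knockdown replicate 1. The pair CARS2 and CARS1 differed by -0.76, or by -0.43 without knockdown replicate 2, in which CARS1 was low. LARS2 and LARS1 differed by -0.75. In the other direction, HARS2 and HARS1 differed by 0.23, as did FARS2 and FARSA. Without control replicate 3, HARS2 and HARS1 lay farther apart, at log2 fold changes of 0.10 and -0.32. FARS2 and FARSA then lay nearer, at -0.46 and -0.54. The pairs share the same 6 libraries, so they are not independent of each other.

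By level per kilobase of transcript, the cytosolic enzyme was the more abundant in every library in 14 of 16 pairs. Cytosolic members ranged from 11.2 CPM per kilobase for FARSB to 290 for AARS1, with a median of 70.0, and mitochondrial members from 0.504 for SARS2 to 88.3 for CARS2, with a median of 12.2. AARS1 lay between 29.9 and 55.2 times above AARS2. The exceptions were cysteine and isoleucine. CARS1 stood at 0.948, 0.855 and 0.817 times the level of CARS2 in the control and at 0.628, 0.303 and 0.676 times in the knockdown. IARS1 stood at 1.99, 1.54 and 2.09 times the level of IARS2 in the control and at 1.42, 0.949 and 1.27 times in the knockdown, so the 2 isoleucine enzymes were nearer to each other in each knockdown library than in any control.

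**Figure D4:**
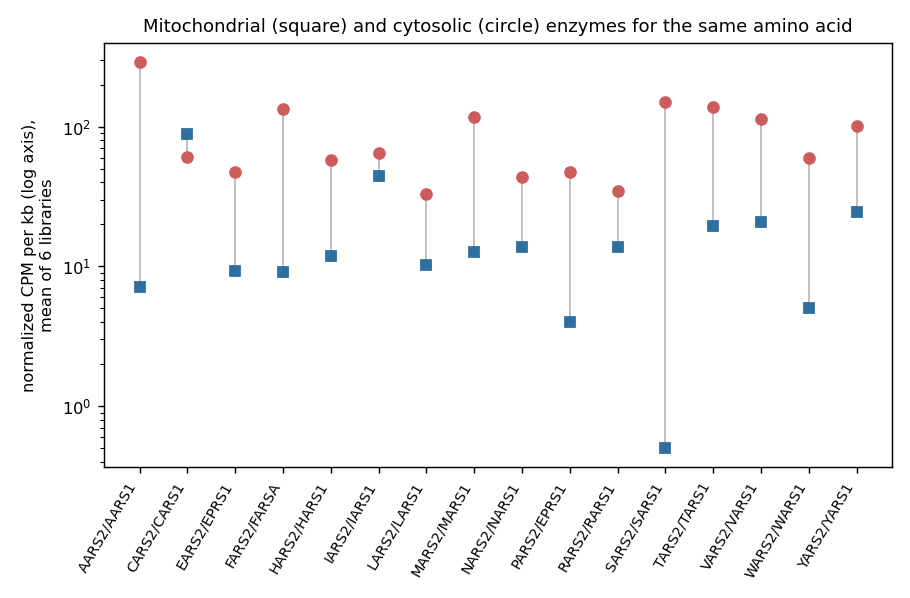
Mean level over the 6 libraries, in normalized CPM per kilobase of transcript on a log axis, of the mitochondrial (squares) and cytosolic (circles) enzyme for the same amino acid in 16 pairs. The cytosolic enzyme lies higher except for cysteine, where CARS2 lies above CARS1, and IARS2 lies close to IARS1.

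HARS1 and HARS2 are transcribed away from each other from starts that lie 84 bases apart on chromosome 5. The stretch from the RefSeq start of HARS1 to that of HARS2 is shown because the 2 genes start at its ends, with the ETS letters in capitals.
HARS1 to HARS2, chr5:140691370-140691455, plus strand: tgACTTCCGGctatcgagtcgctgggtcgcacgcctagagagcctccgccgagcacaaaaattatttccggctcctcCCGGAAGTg

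The ETS letters stood next to each of the 2 starts. HARS2 was measured at 30.4, 32.8 and 24.8 CPM in the control and at 27.5, 29.2 and 31.2 CPM in the knockdown. Per kilobase, HARS1 lay 3.87, 3.98 and 5.87 times above HARS2 in the control and 5.25, 5.16 and 5.36 times in the knockdown. Control replicate 3 lay with the knockdown libraries in this ratio and apart from the other controls. Of the HARS1 exon bases, 8.46% are shared with HARS2 and WDR55 on the other strand.

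Other genes of tRNA charging and its readout were counted in the same way. Of 5 cytosolic elongation factor genes tested, 1 was lower in the control at an unadjusted p under 0.05, against 8.74% of all genes tested. It was EEF1D, at a log2 fold change of -0.65 with no overlap, as in 12.5% of all genes tested. EEF1A1, which brings charged tRNA to the cytosolic ribosome, had a log2 fold change of -0.13. EEF1G was listed at 0 counts in each library, beside 288 to 357 CPM for EEF1B2. The cause of these 0 counts was not tested, so they are not read as absence of the transcript. Of 6 genes of tRNA export, CCA addition and editing, 0 passed in either direction. Of 4 genes listed for selenocysteine tRNA, which SARS1 first charges with serine, 1 was lower in the control at an unadjusted p under 0.05 and 0 were higher, against 8.74% and 10.4% of all genes. It was SEPHS1, a paralog of the selenophosphate synthetase SEPHS2, at 119, 120 and 131 CPM in the control and 165, 182 and 155 CPM in the knockdown. SEPHS2, which makes the selenium donor, had a log2 fold change of -0.22 with overlapping groups. SEPSECS, which completes selenocysteine on the tRNA, lay the other way without overlap, at 14 to 16.6 CPM in the control and 6.97 to 12.6 CPM in the knockdown, a log2 fold change of 0.53. Of 4 genes on the path from uncharged tRNA to ATF4 (GCN1, EIF2AK4, EIF2S1 and ATF4), 1 was lower in the control at an unadjusted p under 0.05. None was higher, and the shares of all genes tested were 8.74% lower and 10.4% higher. The gene lower in the control was GCN1, the partner of GCN2 on the ribosome, at 388, 410 and 323 CPM in the control and 442, 575 and 679 CPM in the knockdown. EIF2AK4, which encodes GCN2, had a log2 fold change of -0.19. None of the genes on these lists passed an adjusted p under 0.05 in the edgeR fit.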

How the data were processed

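RNA-seq of 3 control and 3 Smyca knockdown libraries was used. The authors removed rRNA, made strand-specific libraries, sequenced paired ends, mapped reads to GRCh38 with TopHat2 2.0.12 and assigned them to genes with HTSeq. The annotation and the strand setting are not given in the sources used here. The deposited files hold, per library, a raw read count for each gene, and the authors' FPKM beside it. Counts were used for the tests. The FPKM values were used to check the files and to recover, for control replicate 2, the reads behind its FPKM column (16759253 reads over 29602 genes, 100% of values under 200 reads whole within 0.05).

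Tests were run with edgeR 4.0.16 in R 4.3.3 (TMM, filterByExpr, quasi-likelihood test of control against knockdown without a block, Benjamini-Hochberg adjustment over the 15075 genes tested). All 35 members passed the filter. The biological coefficient of variation was 25.2%. DESeq2 1.42.0 served as an alternative, and the code was tested on simulated counts. The study's DESeq was not used here. Symbols, coordinates, exon overlaps and MANE Select transcript lengths came from GENCODE release 44, which gave a symbol to 57532 of the 58302 identifiers. Promoter sequences came from RefSeq (GRCh38.p14). Motif letters were matched exactly on both strands.

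The members, the lists, the named genes and the alternatives were chosen with earlier results of these data known. Values in every library are given for members with an unadjusted p under 0.05 or without overlap, the 3 highest and 3 lowest fold changes of each compartment, both phenylalanine subunits, the histidine pair, GARS1, KARS1, WARS1 and EPRS1. The counts of library order (which knockdown library was lowest or highest) and the values of CHAC1 and SESN2 were chosen after the values were seen. Genes not listed were not analysed here.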

Additional observations from a re-analysis of the deposited data

How the results depend on the processing

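The members with an adjusted p under 0.05 numbered 0, but 3 with genes kept from 1 count upwards (EARS2, IARS2 and LARS2), 2 with DESeq2, 2 with edgeR's exact test, and 0 to 2 when each library was left out in turn. The 2 came without control replicate 3. Members higher in the control at an unadjusted p under 0.05 numbered 1, and 2 with the replicate block, 0 with control replicate 2 replaced by the reads of its FPKM column, and 0 to 2 without each library in turn. Members lower in the control numbered 5, and 3 to 7 without each library in turn, with 3 without knockdown replicate 2. The mitochondrial median of -0.30 was -0.21 with the FPKM reads. Within the replicate block, 0 members passed the adjusted p, and the medians were 0.0019 (cytosolic) and -0.29 (mitochondrial). Libraries with the same number deviated with correlations of 0.05, 0.09 and 0.02, so the numbers were not taken to pair them. Genes called at an adjusted p ranged from 0 with the replicate block to 1691 without control replicate 3, where the fit of all libraries called 4. They numbered 951 with DESeq2, 916 with genes kept from 1 count upwards, 797 with the exact test, 8 with library totals and 10 with the FPKM reads. With library totals the share of genes below 0 was 39.86%, and the medians were 0.06 (cytosolic), -0.22 (mitochondrial) and 0.11 (all genes). The cause of these differences between settings was not tested. SARS2 and PARS2 had the lowest counts of the members, from 10 and 73 per library, and how far depth limits their values was not tested. The 3 libraries per group limit all values.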
